A study of Mus musculus with 105 samples.

Results

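The genes described here are the mitochondrially encoded genes of the mouse, taken as every row whose name starts with mt-. Each bulk RNA-seq table held 37 such rows among 52108 rows, and these 37 rows were 2 ribosomal RNAs (mt-rRNA), 13 messenger RNAs (mt-mRNA) and 22 transfer RNAs (mt-tRNA). The table of single-cell molecule counts held 28 of them among 34120 rows of mouse genes, and the other 9 were mt-Atp8, mt-Nd4l and 7 mt-tRNA genes. In bulk RNA, 19 of the 37 rows passed the filter on low counts in TX1072 cells (8 mt-mRNA, 2 mt-rRNA and 9 mt-tRNA) and 25 passed it in the deletion lines (10, 2 and 13), so that all counts of tested rows below refer to these and not to all 37.

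The study followed X inactivation in female mouse embryonic stem cells over 5 days, days 0 to 4 after withdrawal of 2i (inhibitors of GSK3 and MEK) and LIF, the factors that hold these cells in the pluripotent state. TX1072 is a C57BL6/J x Cast/EiJ line in which doxycycline can drive Xist from the B6 chromosome, by a promoter placed there and its activator (rtTA) in the Rosa26 locus, and both deletion lines were derived from it. TXdXicB6 lacks the X-inactivation center on the B6 chromosome and TXdXicCast lacks it on the Cast chromosome, and each of the 2 is a single clone. As the deleted region holds Xist, TXdXicB6 also lacks the inducible promoter. Each line gave 3 bulk libraries per day, 45 in all (15 of TX1072 and 30 of the deletion lines), and TX1072 also gave 400 single-cell capture sites per day from 1 culture per day. Day 0 cells were undifferentiated, in serum with 2i and LIF, and cells of the later days grew in serum without them.

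The bulk libraries held 16906263 to 57920260 counts each. TX1072 and the deletion lines were prepared with different kits for removing ribosomal RNA, read at different lengths and tabulated apart, so that levels are compared within each table only. RNA of TXdXicCast at day 0 was degraded according to the methods of the study, and its 3 libraries were fragmented under milder conditions than the other 27 of that table. For these 3 libraries, day, line and RNA handling cannot be told apart. In bulk RNA, fewer cells of a type and less RNA per cell cannot be told apart either.

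Mitochondrial DNA is a small circle that is transcribed from both strands into long precursors. Transfer RNAs lie between most of the other genes, and their excision at both ends, by RNase P and by the enzyme ELAC2, releases the ribosomal and messenger RNAs. The messenger RNAs encode subunits of respiratory chain complexes I, III and IV and of the ATP synthase, and the ribosomal RNAs form the mitochondrial ribosome that translates them. In the annotation of the mouse genome GRCm38 (mm10), 12 of the 13 mt-mRNA genes, both mt-rRNA genes and 14 of the 22 mt-tRNA genes are read on the plus strand of chrM, while mt-Nd6 is the only mt-mRNA gene on the minus strand, together with 8 mt-tRNA genes.

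Gene junctions show this arrangement. The stretch where mt-Cytb ends and mt-Tt begins (chrM:15274-15303, plus strand) is printed first, with the tRNA in capitals. The stretch where mt-Te ends and mt-Nd6 begins (chrM:14056-14085, minus strand) follows, with the start codon of mt-Nd6 in capitals. Both genes on either side of each junction were measured in this series, and all sequences here are from the GENCODE transcripts of GRCm38.

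mt-Cytb to mt-Tt: taaaattatatccatGTCTTGATAGTATAA

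mt-Te to mt-Nd6: tgctgtgtagaaataATGaataattatatt

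Before the levels, 6 of the 13 mt-mRNA rows need a description of their sequence, because only reads with a single place in the genome were counted. A block of chromosome 1 (chr1:24611535-24616197, minus strand, 4663 bases) holds 7 unprocessed pseudogenes that follow the order of the mitochondrial genes from mt-Co1 to mt-Nd4. The copies of mt-Co2, mt-Atp6, mt-Co3, mt-Nd3, mt-Nd4l and mt-Nd4 matched the mitochondrial transcript at every aligned base, 681 of 681 for mt-Co2 and 876 of 876 for mt-Nd4. That of mt-Co1 matched at 482 of 483. The first 30 bases of mt-Co2 (chrM:7013-7042) and of its copy Gm28661 (chr1:24615536-24615565) are shown to make the identity visible, with the start codon in capitals. Next come 30 bases of mt-Co1 (chrM:6390-6419) and of Gm29216 (chr1:24616159-24616188), with the base that differs in capitals, A1066T counted from the first base of mt-Co1.

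mt-Co2: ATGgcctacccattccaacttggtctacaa

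Gm28661: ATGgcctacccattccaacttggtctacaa

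mt-Co1: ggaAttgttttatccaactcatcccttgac

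Gm29216: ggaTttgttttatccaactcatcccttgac

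Of all stretches of 50 bases in the transcript, the length of a TX1072 read, the share also present in a transcript of another gene was 100% for mt-Co2, 99.9% for mt-Co3, 99.5% for mt-Atp6, 98.8% for mt-Nd4l and 98.0% for mt-Nd3. It was 62.2% for mt-Nd4, 51.1% for mt-Co1, 8.19% for mt-Nd2 and 7.61% for mt-Nd5, and no such stretch of mt-Nd1, mt-Cytb, mt-Nd6 or mt-Atp8 was found elsewhere. The 5 rows above 97% were the ones with few counts. In TX1072 the mean count per library was 32.7 for mt-Nd3, 3.6 for mt-Co2, 0.733 for mt-Co3, 0.2 for mt-Atp6 and 0 for mt-Nd4l, against 204229 for mt-Co1. In the deletion lines the corresponding means were 59.5, 1.6, 14.5, 0.7 and 14.7, against 204809. The nuclear copies whose counts were taken held few counts themselves. The highest mean among them was 12.9 on Gm29216 in TX1072 and 11.5 on Gm10925, the copy of mt-Atp6, in the deletion lines. Counts of other genes that share stretches of 50 bases, such as Gm13340 (411 of mt-Co1) and Gm13341 (224 of mt-Co2), were not taken. Levels of the 5 rows above 97% were therefore not read as levels of the genes. mt-Atp8 was also near 0 (mean counts of 0 and 0.367); it lies between mt-Co2 and mt-Atp6, its nuclear counterpart would fall between annotated copies, and no genome sequence was read there.

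**Figure D1:**
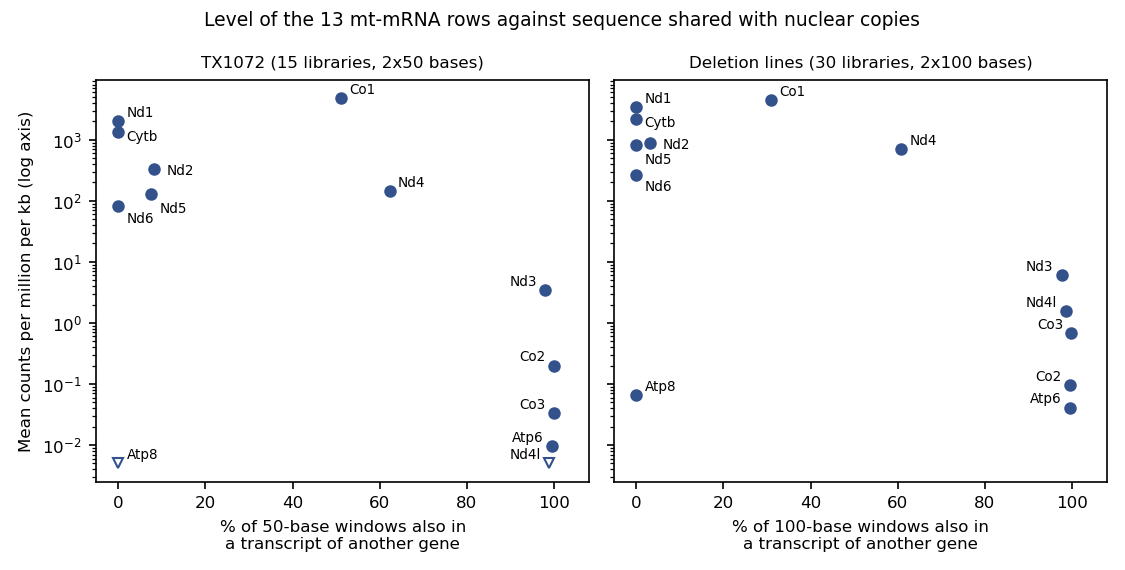
Mean CPM per kilobase (log axis) of the 13 mt-mRNA rows against the percentage of stretches of their transcript, of 50 bases (left, TX1072) or 100 bases (right, deletion lines), that also occur in a transcript of another gene. Open triangles mark rows at 0 counts. The 5 rows at the right edge of each panel (Nd3, Nd4l, Co3, Co2, Atp6) lie far below the others, and mt-Atp8 is low without shared stretches among the annotated transcripts.

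Among the mt-mRNA rows that could be counted, mt-Co1, the catalytic subunit of complex IV, was highest per unit of length. The mean level in TX1072, as counts per 1000000 autosomal counts (CPM) and per kilobase, was 4777 for mt-Co1, 2027 for mt-Nd1 and 1317 for mt-Cytb, the complex III subunit. It was 331 for mt-Nd2, 143 for mt-Nd4, 129 for mt-Nd5 and 81.0 for mt-Nd6, all subunits of complex I like mt-Nd1. In the deletion lines mt-Co1 (4516), mt-Nd1 (3435) and mt-Cytb (2220) kept the first 3 places on the same scale, and mt-Nd6 had 267, the lowest mean of the 7. By library, mt-Nd6 was last in all 36 libraries of days 1 to 4 and in 4 of the 9 of day 0. It was above mt-Nd4 in replicate 1 of TX1072 at day 0, above mt-Nd2 and mt-Nd4 in replicate 1 of TXdXicB6 (360 against 291 and 308), and above mt-Nd2, mt-Nd4 and mt-Nd5 in all 3 of TXdXicCast at day 0 (377 against 141, 152 and 244 in replicate 2). For mt-Co1 and mt-Nd4, the part of the stretches shared with a copy in these levels was not tested.

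The 13 mt-mRNA rows together took between 0.669% and 1.67% of all counts in the 15 TX1072 libraries. At day 0 their share was 1.31%, 0.900% and 1.67% in replicates 1 to 3, with a mean of 1.29% ± 0.383 (SD, n = 3). At day 1 it was 0.822%, 0.669% and 1.23%, and day 4 libraries had 0.888%, 0.999% and 1.17%. Values of day 0 overlap with those of every later day. Compared within replicates, the share was lower at day 1 than at day 0 in 3 of 3 and at day 4 in 2 of 3, with a mean log2 change of -0.51 ± 0.14 (SD, n = 3) at day 1 and -0.31 ± 0.40 at day 4.

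In TXdXicB6 the day 0 shares were spread widely. Day 0 libraries had 0.688%, 1.36% and 1.63%, those of day 1 had 1.38%, 1.73% and 1.76%, and those of day 4 had 1.58%, 2.05% and 1.29%. Replicate 1 at day 0 is the lowest of the 15 libraries of this line, and it also had the line's highest share of the short structural RNAs described below (2.96%). The log2 change was 0.49 ± 0.46 (SD, n = 3) from day 0 to day 1, with a higher value in 3 of 3 replicates, and 0.49 ± 0.78 from day 0 to day 4, higher in 2 of 3, so that the second is smaller than the spread between replicates. Replicate 1, which holds the low library, had the largest change on both days (1.00 at day 1), while replicates 2 and 3 changed by 0.35 and 0.11 from day 0 to day 1 and by 0.60 and -0.34 over the 4 days. Its part in the change was not tested.

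TXdXicCast had shares of 0.135%, 0.317% and 0.163% at day 0, the degraded samples, and of 1.38% to 2.14% in its other 12 libraries. The 3 day 0 values lie below every other library of the deletion lines. From day 1 to day 4 the log2 change was 0.00 ± 0.24 (SD, n = 3), with 1 of 3 replicates higher, which is well within the spread. Short structural RNAs (the 7SK, RNase P, RNase MRP, 7SL, Y and telomerase RNAs) were listed as a sign of RNA quality. They took 3.90%, 2.61% and 2.53% of the counts in these day 0 libraries, against 2.96%, 1.77% and 1.49% in TXdXicB6 at day 0. Other libraries of the table reached 2.82% (TXdXicB6 day 3, replicate 1), 2.67% (TXdXicCast day 2, replicate 3) and 2.63% (TXdXicB6 day 2, replicate 3), so that by this measure only replicate 1 of the degraded samples lies above the others.

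**Figure D2:**
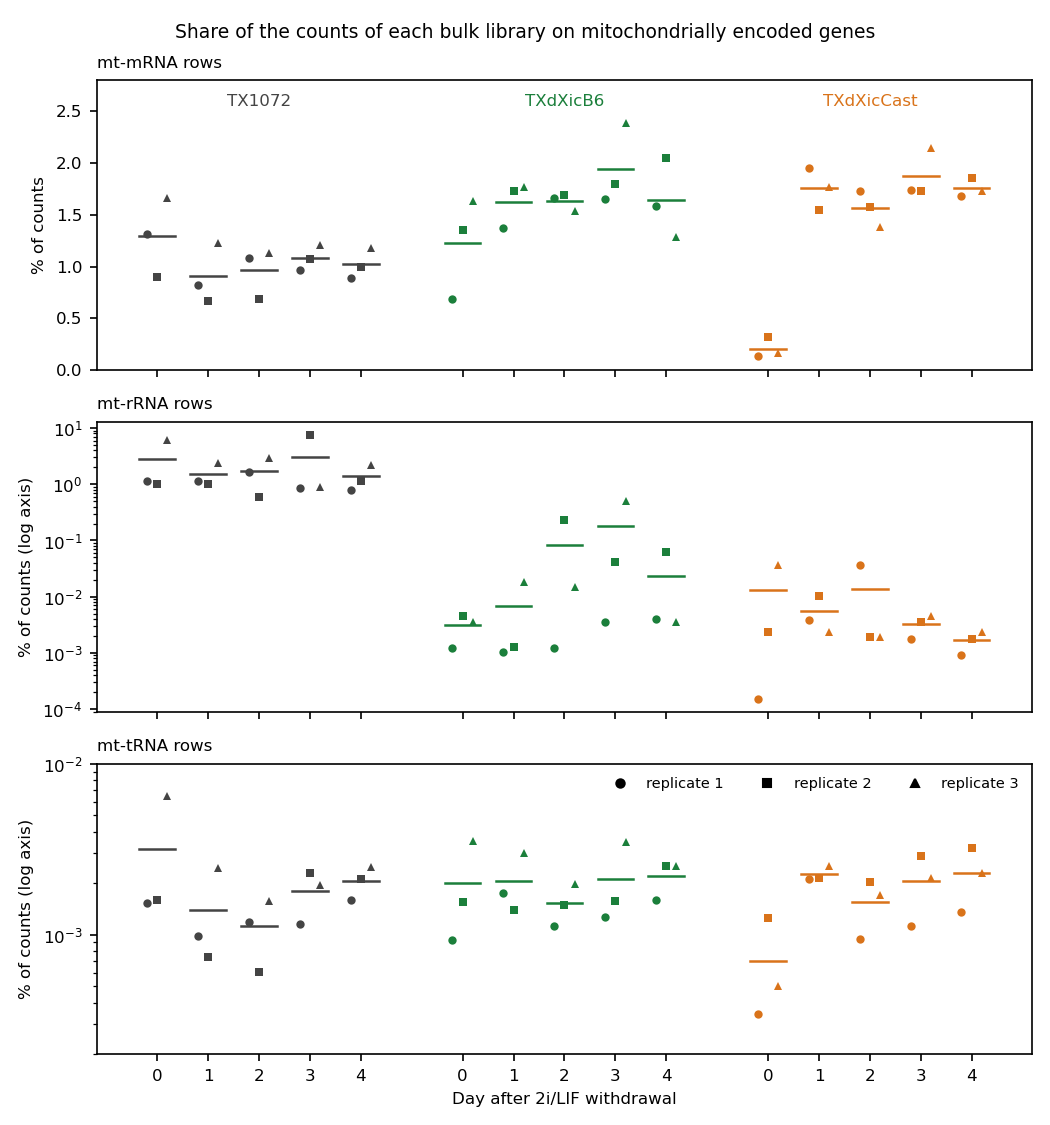
Percentage of the counts of each bulk library on the mt-mRNA rows (linear axis), mt-rRNA rows and mt-tRNA rows (log axes) by line and day; symbols give the replicate and bars the mean of 3 libraries. TXdXicCast at day 0 is low for mt-mRNA in all 3 replicates and for mt-tRNA in replicates 1 and 3. The mt-rRNA share spans orders of magnitude within some groups of the deletion lines.

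Shares of mt-rRNA did not behave like those of mt-mRNA. mt-Rnr1 and mt-Rnr2 are the RNAs of the small and large subunit of the mitochondrial ribosome, and they are among the RNAs that ribosomal RNA removal is designed to deplete. In TX1072 they took 1.16%, 1.02% and 6.23% of counts at day 0, then 0.857%, 7.49% and 0.912% (day 3) and 0.794%, 1.16% and 2.20% (day 4), with replicate 3 of day 0 and replicate 2 of day 3 apart from the rest. In the deletion lines the share was between 0.000151% and 0.502%, with the highest values in replicate 3 at day 3 (0.502%) and replicate 2 at day 2 (0.233%) of TXdXicB6. Since removal acts before sequencing, the part of depletion in these differences was not tested, and a level of mt-rRNA in the cells was not read from them.

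The single libraries also decided the tests on mt-rRNA. In TXdXicB6, mt-Rnr1 had 3.12, 22.8 and 16.6 CPM at day 0, 7.40, 1509 and 77.9 CPM at day 2 and 22.4, 283 and 3035 CPM at day 3. Both rows were called higher at day 2 and at day 3, by a log2 fold change of 5.22 ± 1.93 (SE; adjusted p = 0.0228) and 6.28 ± 2.02 (adjusted p = 0.0092) for mt-Rnr1, in edgeR's quasi-likelihood test with Benjamini-Hochberg adjustment over all genes tested. Without replicate 2 the day 2 change of mt-Rnr1 was 2.14 (adjusted p = 0.399), and without replicate 3 the day 3 change was 3.55 (adjusted p = 0.105). For mt-Rnr2 the corresponding edgeR values were 4.24 ± 1.65 at day 2 and 1.44 without replicate 2 (adjusted p = 0.535), and 5.23 ± 1.72 at day 3 and 2.07 without replicate 3 (adjusted p = 0.269). With the replicate number as a block, the day 2 call of mt-Rnr2 was lost too (3.24, edgeR adjusted p = 0.0698).

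Transfer RNAs were rare in these libraries, between 0.000344% and 0.00644% of counts. They are shorter than most fragments kept for sequencing, so that reads on them can also come from precursors that reach into a tRNA, and the files do not separate the 2. mt-Tt, the threonine tRNA that follows mt-Cytb, and mt-Tl1, a leucine tRNA between mt-Rnr2 and mt-Nd1, had the highest mean counts in TX1072 (137 and 129 per library). mt-Tt led through day 0, with 991 counts against 453 over 3 libraries, and had 1071 against 1481 over the 12 later ones. They were followed by mt-Tp for proline (86.7) and mt-Tm for methionine (57.3). In the deletion lines mt-Tw for tryptophan (190), mt-Tm (93.9), mt-Tp (77.9) and mt-Tq for glutamine (57.2) led, while mt-Tl1 fell under 3 counts per library (2.53) and was at 0 in 22 of 30 libraries. mt-Td and mt-Tk were at 0 in every library of both tables.

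In TX1072, 2 or 3 of the tested mt rows were called lower on each day and none higher, numbers that depended on the filter on low counts. At day 1 after withdrawal 2 of 19 tested rows were lower and none higher, beside 20.8% of all genes tested lower and 25.7% higher (46.5% called). At day 2, 3 of 19 were lower (25.9% of all genes lower and 29.8% higher, 55.7% called). At days 3 and 4 the counts were 2 and 3 lower (27.0% and 27.8% of all genes lower, 28.3% and 31.0% higher, 55.4% and 58.8% called), again with none higher. The called share of the mt rows was 10.5% to 15.8%. Of the called rows 1, 2, 0 and 1 held at days 1 to 4 with each replicate left out in turn. Without the filter edgeR called 14, 17, 12 and 11 of 32 rows at days 1 to 4 (43.8%, 53.1%, 37.5% and 34.4%), beside 26.3%, 32.1%, 32.1% and 34.6% of all genes. All of these were lower, except that mt-Rnr1 and mt-Tg were higher at day 3. Of these calls, 13, 16, 10 and 10 were on rows that the filter also keeps. The 2 fits differ in their base, with 35305 genes fitted without the filter and 19065 tested with it. Without the filter each row took its dispersion from the trend over all genes and none from its own replicates. Whether the mt rows were called less often than other genes was therefore not read from these shares. The median log2 fold change of the 19 rows lay between -0.87 and -0.37, against -0.01 to 0.05 for all genes. With the replicate number as a block the counts were 7, 6, 2 and 3, the added rows at day 1 being mt-Cytb, mt-Nd4, mt-Nd5, mt-Nd6 and mt-Tp. Among the tested short structural RNAs, the sign of RNA quality, only Rny1 was called at day 1 and only Terc at day 4. Both were lower, with log2 fold changes of -2.53 ± 0.72 (SE, edgeR adjusted p = 0.00745) and -0.83 ± 0.24 (edgeR adjusted p = 0.00656). The part of these RNAs in the mt decreases was not tested.

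mt-Nd6, the minus-strand subunit of complex I, showed the largest called decrease among the mt-mRNA rows of TX1072. Its level at day 0 was 76.7, 21.99 and 167 CPM in replicates 1 to 3. It was 22.5, 6.74 and 36.7 CPM at day 2 and 20.0, 19.3 and 48.3 CPM at day 4. The replicates differ by more than the days, and the groups overlap, but replicates 1, 2 and 3 were each lower at days 2 and 4 than at day 0. The log2 fold change was -2.01 ± 0.66 (SE; adjusted p = 0.0153) at day 2 and -1.59 ± 0.65 (adjusted p = 0.0435) at day 4 by edgeR's quasi-likelihood test with Benjamini-Hochberg adjustment. At days 1 and 3 it was -1.21 and -1.46 and was not called (adjusted p = 0.136 and 0.0668 in edgeR). The day 2 call was lost without replicate 1 (adjusted p = 0.0694), and the day 4 call without replicate 1 (0.187) or replicate 3 (0.0965) and with DESeq2 (0.0809). With the replicate block, edgeR gave -1.15 at day 1 (adjusted p = 0.0357), where the call was then made.

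Strand can be looked at within a library, which removes differences of the total mt-mRNA share. Per 100 counts on the 12 plus-strand mt-mRNA rows, TX1072 had 0.521, 0.218 and 0.874 counts on mt-Nd6 at day 0. The ratio was 0.194, 0.0866 and 0.291 in day 2 libraries, and those of day 4 had 0.218, 0.186 and 0.381. Each replicate had a lower ratio than at day 0 on days 1, 2 and 4, whereas at day 3 replicate 2 was higher (0.379). The log2 change of the ratio within replicates was -1.45 ± 0.13 (SD, n = 3) at day 2 and -0.89 ± 0.57 at day 4.

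The deletion lines held more mt-Nd6 counts per plus-strand count at day 0 than at any later day. TXdXicB6 had 2.41, 1.78 and 1.72 per 100 at day 0 and between 0.421 and 1.14 in its 12 later libraries, without overlap. TXdXicCast had 5.28, 5.56 and 8.01 in the degraded day 0 samples and 0.433 to 1.09 later. The 2 lines lay in the same range from day 1 on. Whether reads were assigned by strand was not stated, and without strand, reads from RNA antisense to mt-Nd6, which the plus-strand precursor contains, cannot be told apart from mt-Nd6 itself. The 3 replicates of a day against 3 of another cannot reach an exact permutation p below 0.10, and no p is given for these ratios.

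**Figure D3:**
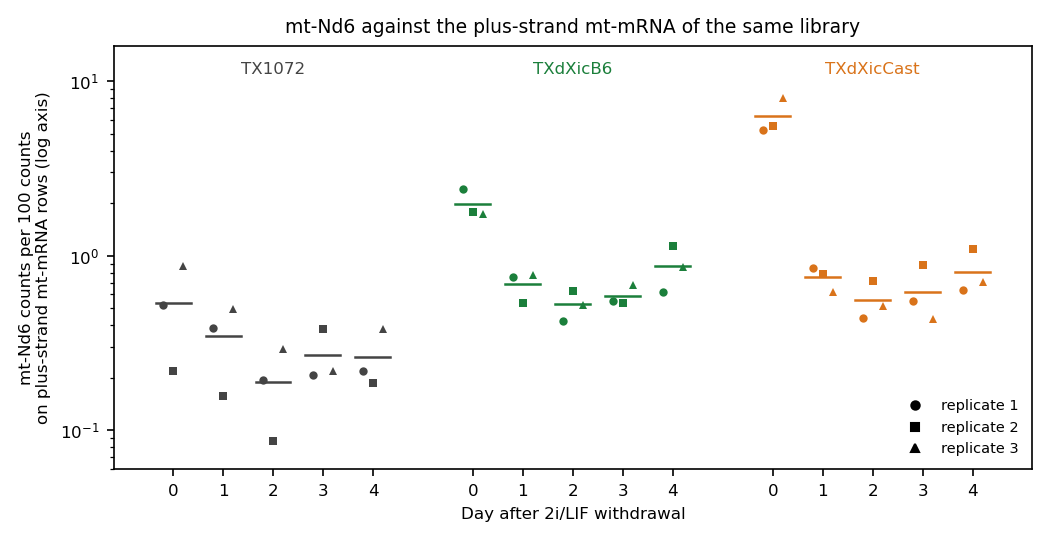
Counts on mt-Nd6, the minus-strand mt-mRNA, per 100 counts on the 12 plus-strand mt-mRNA rows of the same bulk library (log axis), by line and day; symbols give the replicate. Day 0 libraries of TXdXicB6 (1.72 to 2.41) and TXdXicCast (5.28 to 8.01) lie above all later libraries of their line, and those of TX1072 overlap with the later days.

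In TXdXicB6 the level of mt-Nd6 itself fell on every day tested. It was 187, 263 and 300 CPM at day 0, 74.0, 118 and 87.8 CPM at day 2 and 102, 232 and 110 CPM at day 4. Days 0 and 2 do not overlap, and at day 4 replicate 2 lies within the day 0 range. The log2 fold changes from day 0 were -1.04 ± 0.32 (SE; adjusted p = 0.0082), -1.42 ± 0.32 (adjusted p = 4.1e-04), -1.04 ± 0.32 (adjusted p = 0.0062) and -0.75 ± 0.31 (adjusted p = 0.0404) at days 1 to 4 in edgeR's quasi-likelihood test with Benjamini-Hochberg adjustment. The day 4 call was lost without replicate 1 (0.0833), without replicate 3 (0.406) and with DESeq2 (0.0619), while those of days 1 to 3 held under each replicate left out.

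Between day 0 and the later days of TXdXicB6 the plus-strand rows called in edgeR were called higher, and the rows called lower were mt-Nd6, mt-Te and mt-Tp of the minus strand. The higher calls also held mt-Tq of the minus strand at days 1 and 4. At days 2 and 4 the only plus-strand mt-mRNA rows called were mt-Nd3, mt-Nd4l and, at day 4, mt-Co3, whose sequence nuclear copies share and whose levels rest on few reads, and the other higher calls of day 2 were mt-Rnr1 and mt-Rnr2. At day 1, 6 of 25 tested mt rows were called, 4 higher and 2 lower, beside 45.1% of all genes (23.4% higher and 21.7% lower). At day 2, 4 were higher and 3 lower (28.8% and 27.0% of all genes, 55.8% called). At day 3, 11 were higher and 3 lower (29.7% and 27.6%, 57.2% called), and at day 4, 4 were higher and 3 lower (29.9% and 29.0%, 58.9% called). The called share of the mt rows was 24% to 28% on days 1, 2 and 4 and 56% on day 3. Without the filter on low counts 14, 14, 15 and 15 of 34 rows were called, 3 of them lower on each day, beside 24.5%, 31.1%, 32.6% and 33.6% of all genes. With the replicate block 10, 11, 16 and 10 rows were called, and 3, 2, 3 and 2 rows held with each replicate left out in turn. The share of all genes called with the block is not given here, and the block counts were not read as particular to the mt rows. Of the 8 tested short structural RNAs, the sign of RNA quality, none was called in edgeR at days 1 to 3 and 4 were lower at day 4, namely Rmrp (-0.76 ± 0.26), Rn7sk (-0.49 ± 0.20), Rpph1 (-0.77 ± 0.33) and Terc (-0.77 ± 0.30; edgeR adjusted p between 0.0144 and 0.0437). Their part in the mt changes was not tested.

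Among the complex I subunits of TXdXicB6, mt-Nd4 was called higher at day 3 and held that call with each replicate left out. It had 425, 804 and 843 CPM at day 0 and 1089, 1254 and 1515 CPM at day 3, without overlap, a log2 fold change of 0.90 ± 0.26 (SE; edgeR adjusted p = 0.0045). mt-Nd1 was higher at days 1 and 3 (0.68 ± 0.27 and 0.71 ± 0.27), and mt-Nd2 (0.95 ± 0.36) and mt-Nd5 (0.61 ± 0.26) at day 3. None of these calls held without replicate 1 or without replicate 2, and that of mt-Nd5 was also lost without replicate 3 (edgeR adjusted p between 0.0512 and 0.153). mt-Co1 of complex IV rose by 0.50 ± 0.21 at day 3 (edgeR adjusted p = 0.0476), and lost the call without replicate 1 (0.341). mt-Cytb was called on no day in this fit, and with the replicate block it was called higher at day 3 (0.65; adjusted p = 0.0249).

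The rows with shared sequence moved as well. mt-Nd4l had 0.134, 0.0720 and 0.0463 CPM at day 0 and 1.25, 1.48 and 0.0828 CPM at day 4 in TXdXicB6, and mt-Nd3 had 0.357, 0.648 and 1.90 CPM at day 0 and 2.37, 3.74 and 1.82 CPM at day 4. Both were called higher on each of days 1 to 4. The calls of mt-Nd3 were lost at day 2 without replicate 1 (edgeR adjusted p = 0.196) or 2 (0.273), at day 3 without replicate 1 (0.0574) or 2 (0.0877) and at day 4 without replicate 2 (0.132). Those of mt-Nd4l were lost at day 2 without replicate 1 (0.0513) or 2 (0.206) and at day 3 without replicate 2 (0.0788). mt-Co3 was called higher at day 4 (1.98 ± 0.82; edgeR adjusted p = 0.0399), not without replicate 1 (0.114) or replicate 2 (0.308). As these rows keep only the reads that no nuclear copy shares, their changes are changes of those few reads.

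mt-tRNA rows of the minus strand are mt-Te, mt-Tp, mt-Tq and 5 others. mt-Te, the glutamate tRNA next to mt-Nd6, had 0.535, 0.360 and 0.648 CPM at day 0 and 0.109, 0.0297 and 0.0414 CPM at day 4 in TXdXicB6, without overlap. Its edgeR log2 fold change was -2.93 ± 0.76 (SE; adjusted p = 0.0016) at day 4, which held with each replicate left out. It was also called lower at days 1 to 3, but not without replicate 3 at day 1 (0.151) and day 2 (0.0572), nor without replicate 1 (0.0521), 2 (0.143) or 3 (0.0790) or with DESeq2 (0.0662) at day 3. mt-Tp, the proline tRNA, was lower at days 2, 3 and 4, with log2 fold changes of -2.09 ± 0.37, -1.46 ± 0.35 and -1.14 ± 0.35, with 4.41, 5.55 and 8.94 CPM at day 0 and 1.09, 1.21 and 2.15 CPM at day 2. Its day 4 change was -0.59 without replicate 3 and was then not called (edgeR adjusted p = 0.214). mt-Tq, also of the minus strand, was called higher at days 1 and 4 (0.84 ± 0.32 and 0.79 ± 0.31), neither of which held without replicate 1 or without replicate 2. At day 3 mt-Tl1 and mt-Tm were the tRNA rows called higher. mt-Tm lost the call without replicate 1 (0.35; edgeR adjusted p = 0.394), without replicate 3 (0.0650) and with no filter on low counts (0.0649). mt-Tl1 had 0 counts at day 0 and 29 counts over 3 libraries at day 3, at least 6.84-fold higher against a floor of 3 counts over the group, and its call was lost without replicate 3 (edgeR adjusted p = 0.306), with DESeq2 (0.401) and with DESeq2 size factors in edgeR (0.0511).

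In TX1072, mt-Tt and mt-Tp were the tRNA rows called. mt-Tt had 6.04, 7.53 and 29.1 CPM at day 0, 1.34, 1.77 and 4.13 CPM at day 1 and 3.26, 3.21 and 5.08 CPM at day 4, with no overlap between day 0 and the other 2 days. It fell on each of the 4 days, with log2 fold changes of -2.55 ± 0.51, -2.43 ± 0.51, -1.80 ± 0.50 and -1.87 ± 0.49 (SE), with an edgeR adjusted p of 4.4e-04 at day 1. The day 3 call was lost without replicate 3 (adjusted p = 0.0628). mt-Tp fell by 1.78 ± 0.40 on the log2 scale at day 2 and decreased by 1.19 ± 0.40 at day 3, the latter not without replicate 3 (0.229). mt-Co1 was the other called row, with 10034, 7266 and 9827 CPM at day 0 and 5925, 5331 and 8117 CPM at day 1, a log2 fold change of -0.49 ± 0.17 (edgeR adjusted p = 0.0236). It was also called lower at day 4 (-0.43 ± 0.17; adjusted p = 0.0335), and both calls were lost without replicate 1 (0.280 and 0.348).

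**Figure D4:**
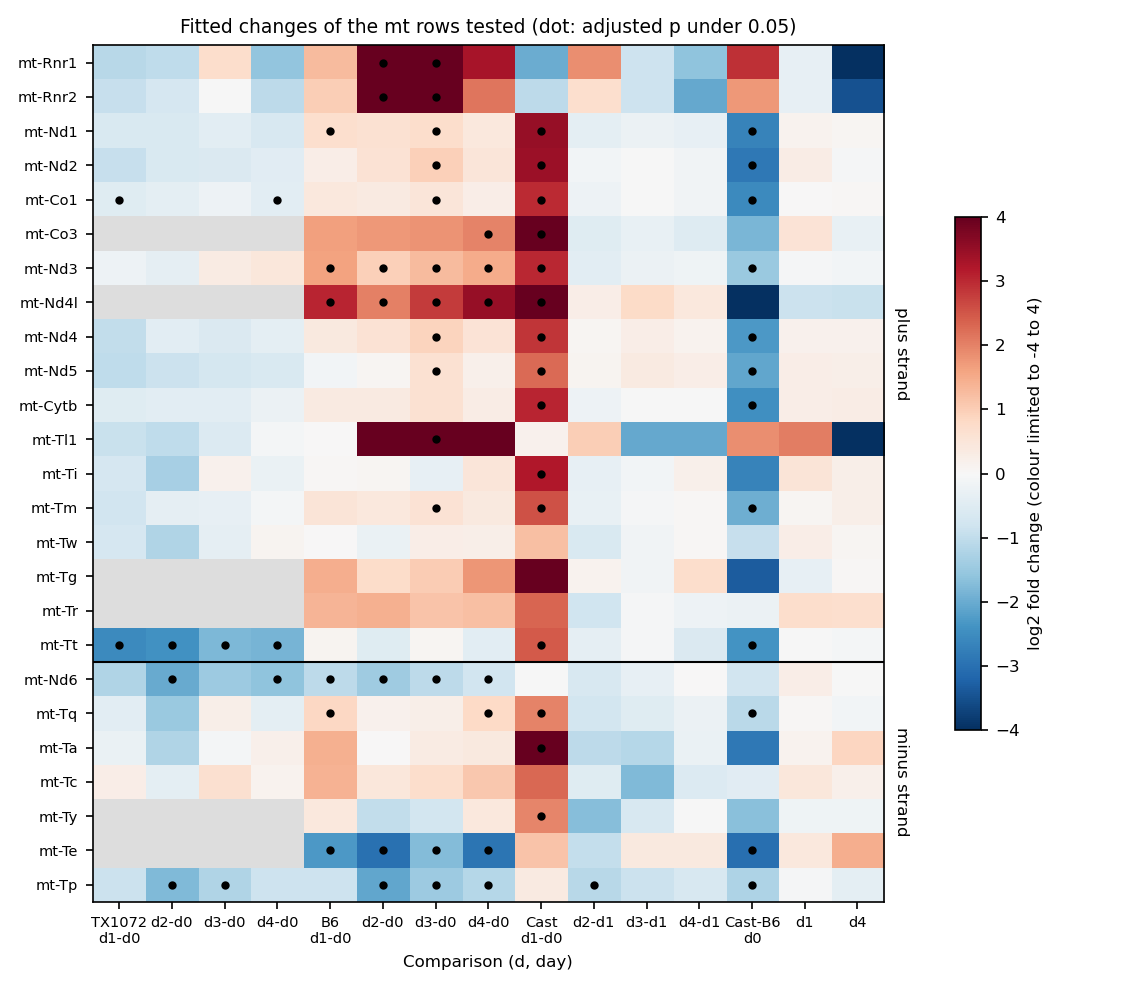
Fitted log2 fold changes of the mt rows tested (vertical axis, plus strand above the line and minus strand below it, each in the order rRNA, mRNA and tRNA) in each comparison (horizontal axis; d, day), as colours from lower to higher; a dot marks an adjusted p under 0.05 and grey a row that was not tested in that table. In TX1072 the dots are all on decreases, mt-Nd6 is called lower on all 4 days in TXdXicB6, and the TXdXicCast columns that involve day 0 carry 15 dots (day 1 minus day 0) and 12 dots (TXdXicCast minus TXdXicB6).

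TXdXicCast differed from the other series in its day 0 libraries. From day 0 to day 1, 15 of 25 mt rows were called higher and none lower, beside 29.2% of all genes higher and 29.4% lower (58.6% called). The 2 mt-rRNA rows had a median log2 fold change of -1.53 and were not called. Without the filter on low counts 21 of 34 rows were called, 19 higher and 2 lower, beside 32.2% of all genes. Of the 8 tested short structural RNAs, 3 were lower at day 1, among them Rpph1, the RNase P RNA (-1.10 ± 0.33), and 1 was higher. mt-Co1 had 754, 1569 and 794 CPM at day 0 and 9223, 7077 and 8449 CPM at day 1, and its log2 fold change was 2.99 ± 0.23 (SE; edgeR adjusted p = 1.1e-11). mt-Nd1 (3.50 ± 0.30), mt-Nd2 (3.44 ± 0.40), mt-Cytb (3.06 ± 0.29), mt-Nd4 (2.86 ± 0.28) and mt-Nd5 (2.25 ± 0.27) rose as well. mt-Nd6 did not follow them, with 80.5, 196 and 163 CPM at day 0 and 180, 133 and 125 CPM at day 1 and a change of 0.00 ± 0.32 that was not called. mt-Nd4l had 0 counts at day 0 and 29 at day 1, at least 11.3-fold higher against a floor of 3 counts over the group. mt-Ta, the alanine tRNA, had 3 and 61 counts and was not called without replicate 2 (edgeR adjusted p = 0.0525). mt-Ti for isoleucine had a change of 3.20 ± 1.37, which was 5.10 without replicate 2 (0.0644) and 1.95 without replicate 3 (0.252), not called in either case or with DESeq2 size factors in edgeR (0.05).

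The comparison of the lines at day 0 shares its day 0 libraries of TXdXicCast with the comparison above. TXdXicCast was lower than TXdXicB6 in 12 of 25 mt rows and higher in none, beside 8.73% of all genes lower and 10.4% higher. The called share of the mt rows, 48%, was above the 19.1% of all genes called, and 7 of the 12 calls held with each replicate left out. Without the filter on low counts 20 of 34 rows were called, 18 lower and the 2 mt-rRNA rows higher, beside 10.2% of all genes. mt-Co1 differed by -2.54 ± 0.23, mt-Nd1 by -2.66 ± 0.29, mt-Nd2 by -2.86 ± 0.39 and mt-Cytb by -2.44 ± 0.29 (SE; edgeR adjusted p between 1.5e-07 and 2.2e-05), and these held with each replicate left out. mt-Nd6 differed by -0.77 ± 0.31 and was not called (edgeR adjusted p = 0.0874), though it was with the replicate block (-0.78; adjusted p = 0.0172).

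From day 1 on no mt row passed the test between the lines. None of the 25 mt rows was called between TXdXicCast and TXdXicB6 at days 1, 2, 3 or 4 in edgeR, beside 0.383%, 0.353%, 1.18% and 5.56% of all genes. At an unadjusted p under 0.05, 0, 0, 3 and 3 rows differed, of which 2 each at days 3 and 4 were the mt-rRNA rows. DESeq2 called 2 rows at day 3 and 0 on the other days, and edgeR without the filter on low counts called 0, 2, 3 and 3. The median difference of the 2 mt-rRNA rows was -0.32, -2.66, -5.78 and -3.74 at days 1 to 4, lower in TXdXicCast, with the high TXdXicB6 libraries of days 2 and 3 named above on the other side. The median difference of the 10 tested mt-mRNA rows was between -0.06 and 0.21 on the log2 scale. Within TXdXicCast, 1 of 25 rows was called between days 1 and 2 (mt-Tp, -1.12 ± 0.37; edgeR adjusted p = 0.0182), beside 35.3% of all genes (17.0% lower and 18.3% higher), and that call was lost without replicate 1 (0.148) or replicate 3 (0.107). No row was called by edgeR between day 1 and day 3 (50.4% of all genes; 1 row at an unadjusted p under 0.05 and 1 by DESeq2) or between day 1 and day 4 (58.8%; 0 rows and 0 by DESeq2). With the replicate block the 3 counts were 4, 3 and 1, without the filter 6, 6 and 4, and mt-Nd6 was then lower at day 2 (-0.71; adjusted p = 0.0208). Without the filter 18.2%, 27.5% and 33.1% of all genes were called, and the share with the block is not given here. The change from day 1 to day 4 differed between the lines in none of the 25 rows (0.722% of all genes; 0 rows at an unadjusted p under 0.05, 0 by DESeq2 and 2 without the filter).

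Single TX1072 cells gave the same genes in counts of unique molecular identifiers (UMIs), from the 3′ ends of polyadenylated RNA. The study retained 277, 325, 341, 257 and 272 cells at days 0 to 4, after a filter that removed cells with a high mitochondrial share, so that the upper end of that share is set by the filter. The retained cells had a median of 124651 to 171158 UMIs per day. Cells of a day came from 1 culture, so that no test between days was made, and the intervals below cover counting error only.

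The mt-mRNA rows took 1.16% of all UMIs at day 0 (95% exact binomial interval 1.15% to 1.16%) and 1.44%, 1.44%, 1.53% and 1.39% at days 1 to 4. Over the 10 capture columns of a day, the technical units of the chip, the share ranged from 0.800% to 1.33% at day 0 and from 1.22% to 1.49% at day 4. The middle 50% of cells at day 0 lay between 0.928% and 1.34%, and the whole range was 0.0708% to 2.18%. The columns of days 0 and 4 overlap through column 2 of day 4 alone, as the next lowest of that day had 1.35%. UMIs of day 1 were summed over 2 runs, and mt-Cytb and mt-Nd1 reached 1305 and 1160 of them in a capture site, above the 1024 tags that a UMI of 5 bases allows in 1 run, so that the day 1 share is not on the same footing as the others. Replicate 1 of the TX1072 bulk libraries came from the same cells and had 1.31% at day 0 and 0.888% at day 4, so that the bulk and single-cell values moved in different directions between these days; the difference was not tested.

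Single genes did not move together in the cells. mt-Cytb had 2515 UMIs per 1000000 at day 0 and 3701 at day 4, with column ranges of 1976 to 2802 and 3386 to 4032 that do not overlap. mt-Nd4 had 1581 and 2513 (column ranges 1253 to 1775 and 2300 to 3026, without overlap). mt-Nd1 had 2852 and 3217 and mt-Co1 1919 and 1746, both with overlapping columns. In these cells, too, only reads with a single place in the genome were counted. Transcripts of other genes hold 51.1% of the 50-base stretches of mt-Co1 and 62.2% of those of mt-Nd4. The part of this sharing in the UMIs of both rows was not tested. mt-Nd6 had 67.6 UMIs per 1000000 at day 0 (exact binomial interval 65.0 to 70.2), then 53.8, 30.4 and 44.1, and 30.0 at day 4 (28.4 to 31.6). Its column ranges of 32.1 to 107 at day 0 and 10.2 to 49.8 at day 4 overlap. Of the 277 cells of day 0, 224 had a UMI of mt-Nd6, and of the 272 of day 4, 160. Columns are parts of 1 culture, so that they show technical spread only.

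**Figure D5:**
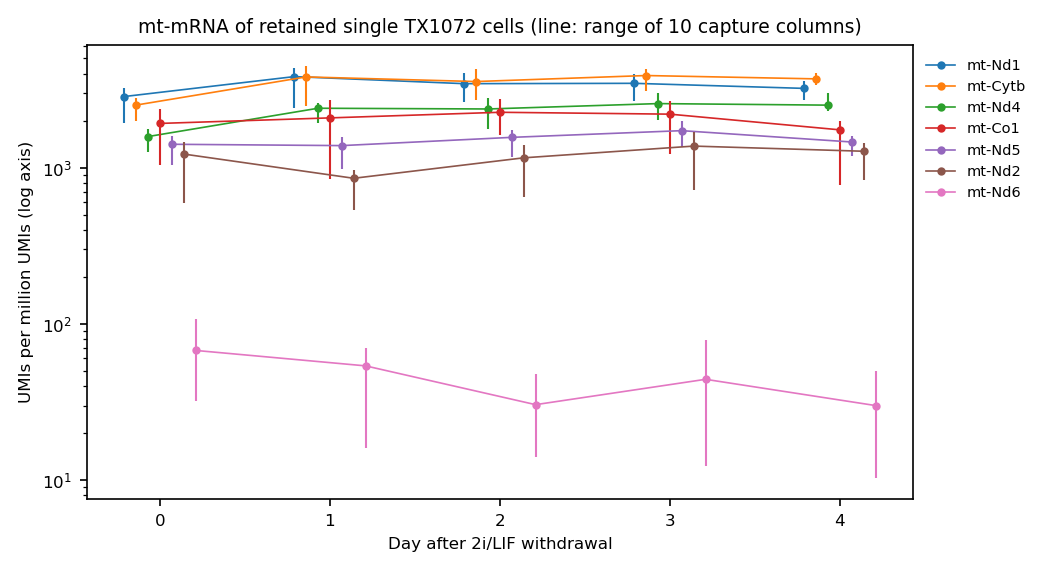
UMIs per 1000000 UMIs (log axis) of mt-mRNA rows in retained single TX1072 cells by day; points are the sums over all cells of the day and lines the range of the 10 capture columns. mt-Cytb and mt-Nd4 lie higher at day 4 than at day 0 without overlap of the columns, and mt-Nd6 lies lowest at days 2 and 4 (30.4 and 30.0).

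The mt-rRNA rows of the single cells met a ceiling. A UMI of 5 bases allows 1024 different tags, and mt-Rnr2 had reached 90% of them in 230 of 277 cells at day 0 and in 248 of 272 at day 4, with a median of 989 and 1001 UMIs per cell. At day 1, which was sequenced in 2 runs, the median was 1723. The mt-rRNA share of 1.25% at day 0, 2.23% at day 1 and 1.10% at day 4 is therefore bounded by the number of tags and the number of runs. mt-Co1 reached 90% of the tags in no cell, and mt-Cytb in 7 cells of day 1 and 2 of day 4. The median of mt-Cytb was 335 UMIs per cell at day 0 and 624 at day 4. A correction of the mt rows for repeated draws of a tag, given at the end, raised the mt-mRNA share on every day. With it the share was highest at day 4 and not at day 3. The mt-mRNA values of single cells above are without this correction.

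Genes encoded in the nucleus that maintain, transcribe and process mitochondrial RNA were followed in 6 lists. Of 11 naive pluripotency markers all 11 were lower at day 4 than at day 0 in TX1072 and in TXdXicB6. Nanog had 1144, 995 and 1356 CPM at day 0 and 218, 247 and 276 CPM at day 4 of TX1072. All 7 formative markers were higher in both lines. The shares of all genes beside these and the following counts of day 4 are 31.0% higher and 27.8% lower (58.8% called) in TX1072 and 29.9% and 29.0% (58.9%) in TXdXicB6. Markers of other cells moved too. In TX1072 at day 4, 6 of 6 tested endoderm markers were higher, 4 of 7 of mesoderm and fibroblasts were higher and 2 lower, and 3 of 5 of trophoblast were higher and 2 lower. The summed level of the mesoderm and fibroblast markers was 34.8, 43.9 and 45.9 CPM at day 0 and 478, 301 and 308 CPM at day 4, with T, a gene of the primitive streak, highest (mean 129 CPM at day 4). Endoderm markers summed to 4.07, 4.97 and 6.72 CPM at day 0 and to 62.3, 40.9 and 41.4 CPM at day 4, mostly Dab2, while those of trophoblast summed to 75.4, 103 and 70.8 CPM and to 117, 126 and 129 CPM, with Tfap2c highest at day 0 and Krt7 at day 4. Afp, Col3a1 and Hand1 were at 0 in the day 0 libraries. In TXdXicB6 the sums at day 4 were 38.7, 43.1 and 42.1 CPM for endoderm (5 of 7 higher, 1 lower), 131, 195 and 128 CPM for mesoderm and fibroblasts (3 of 7 higher, 2 lower; Mesp1 at 0) and 84.6, 79.2 and 73.7 CPM for trophoblast (3 of 6 higher, 2 lower). The part of these cells in the mt levels was not tested.

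The list of factors for mitochondrial RNA stability and decay had 1 of 16 genes higher and 6 lower at day 4 in TX1072, beside 31.0% higher and 27.8% lower among all genes, and 2 higher and 6 lower in TXdXicB6, beside 29.9% and 29.0%. Its largest decrease was Grsf1, which binds RNAs of the light strand such as that of ND6. Grsf1 had 330, 381 and 339 CPM at day 0, 67.8, 75.5 and 77.4 CPM at day 2 and 148, 134 and 146 CPM at day 4 in TX1072, without overlap between days. Its log2 fold change at day 4 was -1.30 ± 0.12 (SE; edgeR adjusted p = 2.7e-08) in TX1072 and -1.54 ± 0.15 (1.1e-09) in TXdXicB6. Lrpprc, which with Slirp stabilises the messenger RNAs of the other strand, was at 0.03 ± 0.12 and -0.02 ± 0.09 and was not called in either, and Slirp was called lower in TX1072 (-0.79 ± 0.18) and not in TXdXicB6 (-0.03 ± 0.21), a difference between lines that was not tested.

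Of the 10 genes for mitochondrial transcription none was called in TX1072 at day 4 by edgeR, and 1 was higher in TXdXicB6. Tfam, which packages and activates mitochondrial DNA, was at -0.26 ± 0.12 and -0.17 ± 0.13, and Polrmt, the RNA polymerase, at 0.10 ± 0.16 and -0.37 ± 0.17, neither called. Among 13 replication and maintenance genes 3 were higher and 5 lower in TX1072, with Dguok, which salvages purine nucleosides for mitochondrial DNA, higher (0.58 ± 0.17) and Dna2, a helicase and nuclease, lower (-1.33 ± 0.13). TXdXicB6 had 1 higher and 5 lower, with Dguok at 0.97 ± 0.13 and Dna2 at -1.26 ± 0.09. The called share of this list was 61.5% and 46.2%, beside the 58.8% and 58.9% of all genes.

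The RNA processing and modification list had 4 higher and 8 lower of 16 genes at day 4 in TX1072 and 3 and 7 in TXdXicB6, or 75% and 62.5% called beside 58.8% and 58.9% of all genes. At day 1 its calls lay mostly the other way, with 7 higher and 1 lower in each line (50% called), beside 46.5% of all genes in TX1072 and 45.1% in TXdXicB6. Elac2, which cuts the 3′ ends of mitochondrial tRNAs, was higher at day 1 by 1.10 ± 0.17 on the log2 scale in TX1072 (SE; edgeR adjusted p = 2.9e-05) and by 0.73 ± 0.14 in TXdXicB6 (8.3e-05). At day 4 it was at -0.21 ± 0.17 against day 0 in TX1072, not called (0.301), and lower in TXdXicB6 (-0.41 ± 0.14; 0.0130). In TXdXicB6 Pus1, a pseudouridine synthase of tRNAs, fell by 1.05 ± 0.12. At day 4 translation factors had 1 higher and 6 lower of 12 in TX1072 and 1 and 8 in TXdXicB6, or 58.3% and 75% called beside the same shares. Of 10 tested regulators of mitochondrial biogenesis, 1 was higher and 3 lower in TX1072 (40% called) and 1 higher and 5 lower in TXdXicB6 (60%). At day 1 the translation factors had 3 higher and 2 lower in TX1072 and 2 and 1 in TXdXicB6, the stability and decay list 6 and 5 in TX1072 and 5 and 5 in TXdXicB6, and the transcription list 2 and 3 higher with none lower. Among all genes tested at day 1, 25.7% were higher and 20.8% lower in TX1072, and 23.4% and 21.7% in TXdXicB6. At day 4 the pluripotency factor Esrrb changed by -3.45 ± 0.19 in TX1072 and by -3.44 ± 0.26 in TXdXicB6, and Myc rose by 1.87 ± 0.28 and 1.29 ± 0.23. Mycn, a paralog of Myc, was lower in TX1072 (-0.98 ± 0.17) and not called in TXdXicB6 (-0.35 ± 0.24). Gabpa, a subunit of the transcription factor GABP, was lower in both (-0.84 ± 0.12 and -0.67 ± 0.09), and the nuclear receptor Esrra (-0.88 ± 0.18) and the coactivators Ppargc1b (-0.81 ± 0.19) and Pprc1 (-0.71 ± 0.15) were lower in TXdXicB6.

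In TXdXicCast, counted from day 1, the lists had 0 higher and 4 lower (transcription), 2 and 6 (replication), 0 and 11 (processing), 0 and 9 (stability), 0 and 7 (translation) and 1 and 7 (biogenesis) at day 4, beside 29.7% higher and 29.1% lower among all genes. The median log2 fold change of the 16 processing genes was -0.49, against 0.00 over all genes. Elac2 changed by -1.39 ± 0.14 (SE, edgeR adjusted p = 1.7e-09), Tfam by -0.44 ± 0.13 (0.0039) and Lrpprc by -0.25 ± 0.09 (0.0121), while Dguok rose by 1.07 ± 0.13. Markers of other cells moved in the same comparison. Acta2 (9.03 ± 0.61), T (7.24 ± 0.71), Foxa2 (4.62 ± 0.58) and Dab2 (2.18 ± 0.21) were among those called higher. Afp, Sox17, Sox7 and Thy1 were among those called lower, and the part of these cells was not tested. Against its degraded day 0 samples, the day 1 libraries of this line had 7 processing genes higher and 5 lower, with Elac2 higher by 0.56 ± 0.14 on the log2 scale. In the same libraries no mt-mRNA row was called between days 1 and 4 in edgeR, as given above.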

How the data were processed

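The deposited bulk tables hold counts of reads per gene, made by the authors with STAR 2.5.2b on the N-masked mm10 genome and featureCounts over exons, with unique alignments only; whether strand was used is not given in the sources used here. TX1072 libraries (TruSeq Stranded Total RNA) were read at 50 bases and the deletion lines (KAPA RNA HyperPrep with RiboErase) at 100 bases. The deposited single-cell table holds UMI counts per gene and cell, from unique 3′ reads. The other deposited tables, of counts by allele, were not used.

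Each bulk table was fitted in 1 model with edgeR 4.0.16 (R 4.3.3; quasi-likelihood F test, two-sided, filterByExpr, Benjamini-Hochberg threshold 0.05 over all genes), with library sizes and TMM factors from autosomal rows. CPM are counts per 1000000 counts of these scaled sizes. The test was checked on simulated counts, in which 200 well-counted autosomal genes changed by 1 on the log2 scale, with the same dispersion for all genes. That check does not cover rows with few counts or with single libraries that stand apart, as among the mt rows. A share is that of all counts; sums over rows got no p. Alternatives were DESeq2 1.42.0, other scalings, no filter, a replicate block and each replicate left out. Replicates were differentiated on different days according to the reporting summary of the study, which names no replicate numbers. Equal numbers were taken as pairs: deviations from the group means correlated with a median of 0.18 (TX1072), 0.33 (TXdXicB6) and 0.25 (TXdXicCast) for equal numbers and -0.10, -0.18 and -0.18 for unequal ones. No 2 libraries were duplicates. p-values measure the spread between these cultures.

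Named were both mt-rRNA rows, the mt-mRNA rows, the 4 most counted mt-tRNA rows of a table and, per comparison, the 2 largest called increases and decreases of tRNA rows; of the lists, at most 4 called genes each way (mean count 100 or more), and Tfam, Polrmt, Lrpprc and Slirp. Members, lists and tests were chosen with earlier results of these data known.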

Additional observations from a re-analysis of the deposited data

Results flagged for a closer look

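The mt-mRNA share of UMIs was taken in each of the 10 capture columns of every day, and 1 column stood apart from the other 9 on each of 2 days. At day 1, column 2 had 0.920% and the next lowest column 1.32%. At day 4, column 2 had 1.22% and the next lowest 1.35%. With 15 groups tested in this way (3 classes of RNA on 5 days), chance sets apart about 1 group in 20.

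From day 0 to day 1 the mt-mRNA share of the bulk libraries was lower in 3 of 3 TX1072 replicates, with a mean log2 change of -0.51 (from -0.68 to -0.43), and higher in 3 of 3 TXdXicB6 replicates, with a mean of 0.49 (from 0.11 to 1.00). This difference was not tested, because the lines were prepared with different kits and tabulated apart, so that line and preparation cannot be told apart.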

How the results depend on the processing

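No called result changed its direction under any alternative run. Of the shares, which got no test, the log2 change of mt-tRNA in TX1072 (day 0 to day 4, -0.65 to 0.23) and of mt-mRNA (-0.12 to 0.12) and mt-tRNA (-0.38 to 0.23) in TXdXicCast (day 1 to day 4) crossed 0 when 1 replicate was left out. Without the filter on low counts the numbers of called mt rows were 14, 17, 12 and 11 at days 1 to 4 in TX1072, 14, 14 and 15 at days 1, 2 and 4 in TXdXicB6, 6, 6 and 4 at days 2 to 4 against day 1 in TXdXicCast, 20 between the lines at day 0, 2, 3 and 3 at days 2 to 4 and 2 for the difference of their change. Most were rows that the filter also keeps (13, 16, 10 and 10 in TX1072, all in the deletion lines). In the fits without the filter the prior degrees of freedom of edgeR were infinite, against 8.09 (TX1072) and 7.64 (deletion lines) with it, so that each row took its dispersion from the trend over all genes and none from its own replicates. With the replicate block, which uses the pairing of replicates by number, they were 7 and 6 at days 1 and 2 in TX1072, 10 and 11 at days 1 and 2 in TXdXicB6 and 4, 3 and 1 at days 2 to 4 in TXdXicCast. DESeq2 called 1 row at day 3 in TXdXicCast and 2 between the lines at day 3. The shares of all genes called with the block, by DESeq2 or with a replicate left out are not given here. Counts of mt rows from those fits were therefore not read as particular to the mt rows. Among single genes, the block ended the call of mt-Rnr2 at day 2 in TXdXicB6 (adjusted p = 0.0698 in edgeR) and no other call.

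Leaving out 1 replicate at a time gave 1 to 4, 2 to 3, 1 to 8 and 2 to 5 called rows at days 1 to 4 in TX1072, 4 to 5, 3 to 10, 7 to 9 and 4 to 9 in TXdXicB6, 13 to 14 for day 1 against day 0 and 0 to 2, 0 to 1 and 0 to 0 for days 2 to 4 against day 1 in TXdXicCast, and 7 to 12 between the lines at day 0. The lists of nuclear genes gave 29 to 37 called genes at day 4 in TX1072 and in TXdXicB6 and 34 to 38 in TXdXicCast.

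In single cells, the mt-mRNA share of UMIs at days 0 to 4 became 1.17%, 1.47%, 1.46%, 1.55% and 1.41% of UMIs without the mt-rRNA rows. As a median over cells it was 1.15%, 1.46%, 1.54% and 1.37% (days 0, 2, 3 and 4), and over all capture sites with at least 10000 UMIs 1.24%, 1.48%, 1.68% and 1.53%. A correction of the mt rows for repeated draws of a UMI, chosen after seeing the data, gave 1.42%, 1.60%, 1.78%, 1.92% and 1.93%. Leaving out 1 capture column gave 1.14% to 1.18%, 1.42% to 1.49%, 1.41% to 1.48%, 1.50% to 1.57% and 1.38% to 1.41%. The fit without the TXdXicCast day 0 libraries, also chosen after seeing the data, ended the call of mt-Tl1 at day 3 in TXdXicB6 (adjusted p = 0.0651 in edgeR) and no other.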
